A study of Homo sapiens with 15 samples.

Results

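A set of long noncoding RNAs (lncRNAs) that act in the nucleus or are linked to the tumour suppressor p53 was examined in A549 cells under high oxygen. These 7 genes, NEAT1, MALAT1, TALAM1, PINCR, DINOL, PANDAR and TP53TG1, were taken by symbol from the 43388 genes of the count tables. A549 is a human lung adenocarcinoma line with features of alveolar epithelium. Cells received 1e-05 mM all-trans retinoic acid (ATRA, the active form of vitamin A) or its ethanol vehicle for 24 hours, followed by 72 hours of hyperoxia (95% oxygen) or normoxia (21% oxygen). RNA-seq libraries numbered 2 for hyperoxia with vehicle, 2 for normoxia with vehicle, 3 for hyperoxia with ATRA and 3 for normoxia with ATRA. For another 4 libraries, 2 per oxygen level, the labels name the oxygen exposure alone. All cells were wild type, in serum-containing medium, and the labels do not say whether replicate libraries came from separate cultures, so p-values measure only the spread between these libraries.

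NEAT1 is the RNA scaffold of paraspeckles, nuclear bodies that retain proteins and RNAs, while MALAT1 accumulates at nuclear speckles, where splicing factors are stored. TALAM1 is transcribed from the opposite strand of the MALAT1 locus. PINCR, DINOL, PANDAR and TP53TG1 are known as targets of p53, the transcription factor that responds to DNA damage, and several of them are known to act on p53 signalling or on the choice between arrest and cell death. Oxygen in excess damages DNA, and CDKN1A, the p21 inhibitor of the cell cycle, is the classic p53 target beside which DINOL and PANDAR lie.

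In these data PINCR was counted in 6 of the 7 hyperoxia libraries and in none of the 7 normoxia libraries. In oxygen exposure alone its difference did not pass the test. TP53TG1 measured higher in all 4 hyperoxia libraries without ATRA than in normoxia. That difference passed the test when the vehicle and oxygen-alone libraries were pooled, where 24.3% of all genes did, but not in either set by itself. The pooled fit includes replicate 1 of hyperoxia alone, the library with the fewest genes counted, and was not repeated without it. The share of all genes separated as PINCR or TP53TG1 were was not counted. NEAT1, MALAT1 and TALAM1 had high counts in every library, and none passed the test in the 6 planned comparisons. The reads of MALAT1 and TALAM1 cannot be told apart here, so neither of their levels is certain. DINOL was near zero throughout, and PANDAR was low, at 0 to 11 counts per library with more than 3 counts in 10 of 14. Of the 5 lncRNAs with counts enough to be tested, 0 passed the test for ATRA against vehicle. Few genes did, 1.25% of all tested in normoxia and 2.21% in hyperoxia, so 0 of 5 does not set these lncRNAs apart.

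Positions are given on GRCh38.p14 as annotated by RefSeq. NEAT1 spans chr11:65422798-65445540 on the plus strand and is annotated as a lncRNA of 22743 bases. MALAT1 lies 52198 bases downstream at chr11:65497738-65506516, also on the plus strand. TALAM1 occupies chr11:65499312-65507432 on the minus strand and shares 7205 bases with MALAT1, which is 82.1% of the MALAT1 span and 88.7% of its own. PINCR lies on the X chromosome at chrX:43176994-43226598 on the plus strand, with 2228 exon bases in 6 exons of GENCODE 44 and no overlapping gene in RefSeq. DINOL, 951 bases on the minus strand at chr6:36677609-36678559, lies wholly within CDKN1A, which is transcribed from the plus strand. PANDAR, 1506 bases on the minus strand at chr6:36673621-36675126, lies 1337 bases upstream of CDKN1A and shares 1377 bases with the pseudogene LAP3P2. TP53TG1 spans chr7:87325347-87345492 on the minus strand, 172 bases from CROT, a peroxisomal carnitine acyltransferase gene that is transcribed in the other direction.

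The promoter windows of TP53TG1 and DINOL are shown because each is shared with a gene on the opposite strand, so the 2 directions of 1 sequence can be set beside each other in the counts. Each window runs from 250 bases before to 50 bases after a RefSeq start site and is read 5′ to 3′ on the minus strand. The TP53TG1 window lies at chr7:87345443-87345742 and shares 271 bases with that of CROT, and the DINOL window lies at chr6:36678510-36678809 and shares 254 bases with that of CDKN1A. Capitals mark GC boxes (GGGCGG, or CCGCCC on the other strand) and CCAAT boxes (CCAAT, or ATTGG on the other strand).
TP53TG1: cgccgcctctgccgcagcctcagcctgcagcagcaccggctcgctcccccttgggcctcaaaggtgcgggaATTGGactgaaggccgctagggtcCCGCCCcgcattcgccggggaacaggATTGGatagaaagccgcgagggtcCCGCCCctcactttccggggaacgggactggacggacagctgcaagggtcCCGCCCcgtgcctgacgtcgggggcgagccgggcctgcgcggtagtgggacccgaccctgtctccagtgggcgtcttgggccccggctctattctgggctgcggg
DINOL: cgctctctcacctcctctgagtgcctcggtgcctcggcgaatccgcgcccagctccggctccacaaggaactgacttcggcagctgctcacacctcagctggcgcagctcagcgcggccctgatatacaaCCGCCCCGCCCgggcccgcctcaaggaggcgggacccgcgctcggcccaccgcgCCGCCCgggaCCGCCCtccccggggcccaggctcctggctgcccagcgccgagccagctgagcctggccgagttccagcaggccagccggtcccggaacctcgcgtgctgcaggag
The TP53TG1 window held 3 GC boxes, which begin at its bases 96, 146 and 196, and 2 CCAAT boxes at bases 72 and 122. The DINOL window held 4 GC boxes and no CCAAT box. A GC box was found in 45.0% and a CCAAT box in 34.6% of the 35116 promoter windows of the same length. The single p53 decamer, searched on both strands, matched neither of these windows and 6.63% of all. GC content was 70.7% for TP53TG1 and 73.7% for DINOL, against a median of 58.7% over all windows. These matches are letters in a window, not measured binding sites.

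The 14 libraries held between 2642377 and 5605072 counts on genes. A count of 3, the largest treated as near zero, corresponded to between 0.535 and 1.14 CPM, the count scaled to a common library size. The keratins KRT8 and KRT18 and the aldo-keto reductase AKR1B10, abundant in A549 cells, were high in every library, the epithelial markers CDH1 and EPCAM were low, with EPCAM between 0 and 24 counts, and of the 7 leukocyte, endothelial and fibroblast markers listed, CD3E and DCN were at 0 in every library, PTPRC and COL1A2 had at most 1 count, PECAM1 and PDGFRB at most 4 and CDH5, an endothelial cadherin, at most 20 (5.22 CPM). A single library stood apart, replicate 1 of hyperoxia alone, with 12657 genes counted and 640 genes at 1 to 5 counts. Next in genes at 1 to 5 counts was replicate 1 of hyperoxia with ATRA, with 1281 such genes and 16466 genes counted, while the other 12 libraries had at least 2443 such genes. Results on low counts are therefore also given without these libraries, except for the fits with pooled controls.

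PINCR (p53-induced noncoding RNA) is known to associate with the nuclear matrix protein MATR3 and to promote survival of cells with damaged DNA. Its raw count was 19 in both hyperoxia libraries with vehicle. With ATRA in hyperoxia it was 30, 26 and 23. In hyperoxia alone it was 0 in replicate 1, the library that stood apart, and 6 in replicate 2. All 7 normoxia libraries had 0 counts, so the groups did not overlap with vehicle or with ATRA, and they met at 0 in the libraries of oxygen exposure alone. How many of all genes separate the groups in this way was not counted, here or for the other lncRNAs.

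**Figure D1:**
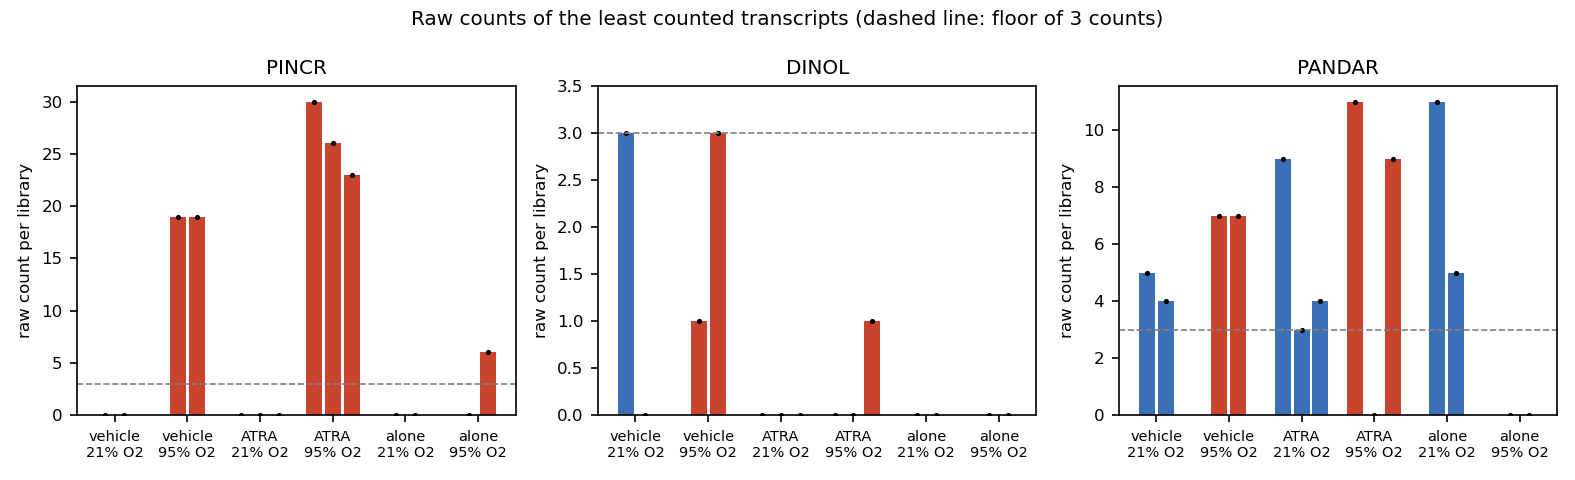
Raw counts of PINCR, DINOL and PANDAR in each of the 14 libraries (1 bar per library, blue for 21% oxygen, red for 95% oxygen, black dots at the bar ends, dashed line at 3 counts). PINCR has 19 to 30 counts in the 5 hyperoxia libraries with vehicle or ATRA and 0 in every normoxia library, DINOL never exceeds 3 counts, and PANDAR lies between 0 and 11 counts at both oxygen levels.

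On the CPM scale PINCR averaged 4.20 ± 1.19 (SD, n = 2) in hyperoxia with vehicle and 6.93 ± 2.61 (SD, n = 3) in hyperoxia with ATRA. Against the level of 3 counts per normoxia library, the hyperoxia mean was 5.33-fold that level with vehicle and 8.32-fold with ATRA. Both differences passed (adjusted p = 0.00577 with vehicle and 0.000403 with ATRA, edgeR quasi-likelihood test). PINCR passed the low-count filter only through its hyperoxia libraries, so these p-values are not independent of where it was counted. PINCR was the 1 lncRNA of the 5 tested that passed in each of these comparisons, where 17.5% and 22.7% of the 14957 genes tested were called. In hyperoxia alone the mean was 0.977 ± 1.38 CPM (SD, n = 2) and the difference did not pass (adjusted p = 0.166, edgeR). Without replicate 1 of hyperoxia alone it still did not (adjusted p = 0.0560, edgeR), and background calls in that comparison were 15.2% of 15339 genes.

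Over the 14 libraries, with oxygen labels permuted within vehicle, ATRA and oxygen exposure alone, the mean difference was 4.45 CPM (exact permutation test, two-sided, p = 0.00833 over 720 groupings, of which the smallest possible p is 0.00278). Without replicate 1 of hyperoxia alone the difference was 5.19 CPM (exact permutation p = 0.00278, the smallest possible). Under vehicle the call was lost without replicate 2 of normoxia (adjusted p = 0.0838, edgeR) and in a fit of all 14 libraries in 6 groups (adjusted p = 0.0695, edgeR). With ATRA the call held in every alternative run, with adjusted p from 1.94e-06 to 0.0158 (edgeR or DESeq2), and adjusted p was 0.000329 (edgeR) without replicate 1 of hyperoxia with ATRA. These repeats use the same counts, and PINCR was kept for testing only through hyperoxia, so they add no independent support. The permutation test of PINCR was chosen after seeing the data and has the same limit. A lower share of cells expressing PINCR and less PINCR RNA per cell cannot be told apart in such bulk libraries.

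ATRA did not move PINCR by more than the spread between libraries in hyperoxia. The log2 fold change of ATRA against vehicle was 0.71 (SE 0.83, adjusted p = 0.785, edgeR), with a 95% interval from -1.03 to 2.46 that leaves room for a rise or a fall. In normoxia both groups were at 0 and no fold was taken.

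TP53TG1 is known as a p53-induced lncRNA that binds the RNA-binding protein YBX1. With vehicle it measured 11.4 and 9.53 CPM in hyperoxia and 5.56 and 4.97 CPM in normoxia. In oxygen exposure alone it measured 18.4 and 13.0 CPM in hyperoxia and 4.49 and 5.04 CPM in normoxia. With ATRA it measured 8.65, 4.59 and 5.90 CPM in hyperoxia and 6.26, 3.43 and 5.73 CPM in normoxia. Both hyperoxia libraries were above both normoxia libraries with vehicle and in oxygen exposure alone, while the ATRA groups overlapped. The share of all genes with such a separation was not counted.

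**Figure D2:**
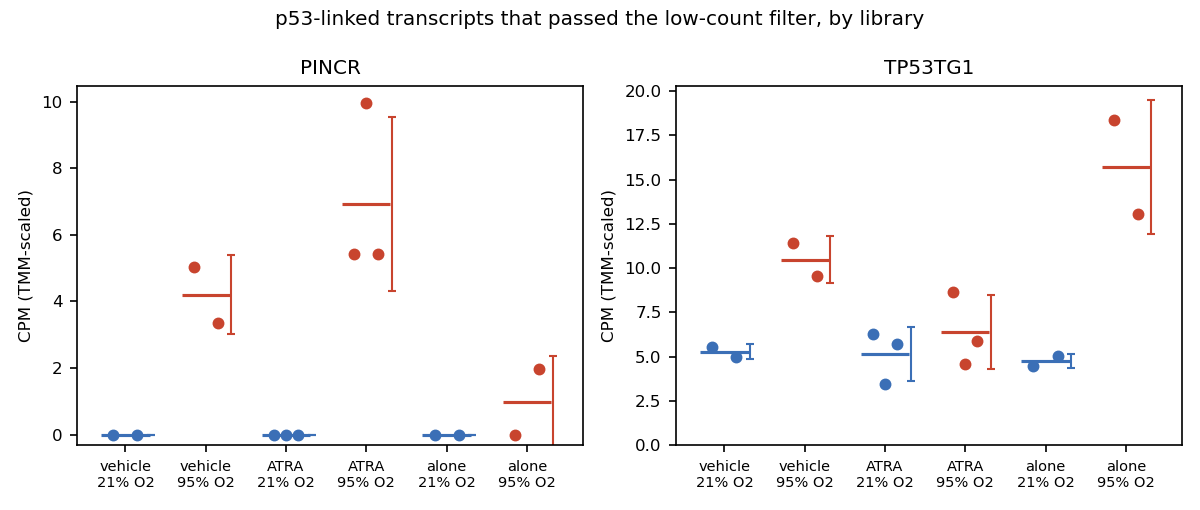
Levels of PINCR and TP53TG1 in CPM (y axis, linear) by treatment and oxygen level (1 point per library, horizontal line at the group mean, error bar SD, which reaches below the axis for PINCR in hyperoxia alone). PINCR is 0 in all 7 normoxia libraries, and TP53TG1 is 9.53 CPM or more in the 4 hyperoxia libraries without ATRA against at most 6.26 CPM in normoxia.

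The log2 fold change of TP53TG1 in hyperoxia was 0.99 with vehicle (SE 0.55, adjusted p = 0.252, edgeR), 1.72 in oxygen exposure alone (SE 0.58, adjusted p = 0.0572, edgeR) and 0.33 with ATRA (SE 0.46, adjusted p = 0.664, edgeR). With the vehicle and the oxygen-alone libraries taken as 1 control group, 4 against 4, it was 1.38 (SE 0.39, adjusted p = 0.0150, edgeR), a 2.60-fold higher level in hyperoxia. This pooled fit includes replicate 1 of hyperoxia alone, the library that stood apart, and was not repeated without it. In that comparison 2 of the 5 lncRNAs tested were called, TP53TG1 and PINCR (adjusted p = 0.0115, edgeR), against 24.3% of 14720 genes.

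Across the 14 libraries the mean difference in TP53TG1 within treatment was 5.15 CPM (exact permutation test, two-sided, p = 0.0139), and over the 10 libraries with vehicle or ATRA it was 2.83 CPM (exact permutation p = 0.0833). Without replicate 1 of hyperoxia alone, its highest library, the difference was 3.78 CPM (exact permutation p = 0.0139), and the log2 fold change in oxygen exposure alone was 1.44 (adjusted p = 0.141, edgeR). The call in oxygen exposure alone was gained in DESeq2 (adjusted p = 0.0178), without replicate 2 of hyperoxia alone (adjusted p = 0.00873, edgeR) and without replicate 1 of hyperoxia with ATRA (adjusted p = 0.0474, edgeR). Without that last library the log2 fold change with ATRA was 0.035.

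ATRA against vehicle gave TP53TG1 a log2 fold change of -0.68 in hyperoxia (SE 0.48, adjusted p = 0.589, edgeR) and -0.02 in normoxia (SE 0.52, adjusted p = 0.999, edgeR). The oxygen effect with ATRA minus that with vehicle was -0.66 (SE 0.71, adjusted p = 0.909, edgeR interaction term), so the overlap of the ATRA groups was not shown to differ from the separation with vehicle. CROT, which shares the promoter window printed above, measured 8.39 ± 0.131 CPM in hyperoxia and 12.8 ± 0.560 CPM in normoxia with vehicle (SD, n = 2 each). Its log2 fold change there was -0.61 (SE 0.39, adjusted p = 0.343, edgeR), and with ATRA it was 0.22 (SE 0.32, adjusted p = 0.677, edgeR).

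DINOL encodes DINO, a damage-induced RNA known to bind and stabilise p53. It had 8 counts in all 14 libraries together. They were 1 and 3 counts in hyperoxia with vehicle, 1 count in replicate 3 of hyperoxia with ATRA, and 3 counts in replicate 1 of normoxia with vehicle. The other 10 libraries had 0, and no library exceeded 3 counts, so no oxygen or ATRA effect on DINOL could be detected with these counts. The mean difference between hyperoxia and normoxia was -0.0017 CPM (exact permutation test, two-sided, p = 1).

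The gene around DINOL did change. CDKN1A, which contains all of DINOL on the other strand and shares 146 exon bases with it in GENCODE, had 219 to 6045 counts per library. Its log2 fold change in hyperoxia was 3.34 with vehicle (SE 0.14, adjusted p = 3.34e-12, edgeR) and 3.83 with ATRA (SE 0.12, adjusted p = 6.49e-15, edgeR). In the fit of oxygen exposure alone it was 3.69 (SE 0.17, adjusted p = 7.92e-09, edgeR). How the counting assigned reads in the shared bases is not given in the sources used here.

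PANDAR (promoter of CDKN1A antisense DNA damage activated RNA) is known to bind NF-YA and to restrain genes of cell death. It had 75 counts in all, in 11 of the 14 libraries. With vehicle both hyperoxia libraries had 7 counts, while normoxia had 5 and 4. With ATRA the hyperoxia libraries had 11, 0 and 9 counts, while normoxia had 9, 3 and 4. In oxygen exposure alone it had 0 in both hyperoxia libraries and 11 and 5 in normoxia. The groups overlapped with vehicle and with ATRA, and normoxia was above hyperoxia in oxygen exposure alone. Mean levels were 1.03 ± 1.00 CPM in hyperoxia and 1.45 ± 0.634 CPM in normoxia (SD, n = 7 each), a difference of -0.417 CPM (exact permutation test, two-sided, p = 0.378). Without replicate 1 of hyperoxia alone it was -0.245 CPM (exact permutation p = 0.619), and without replicate 1 of hyperoxia with ATRA -0.576 CPM (exact permutation p = 0.256). Leaving out either of these libraries turned the DINOL difference to 0.0228 CPM (exact permutation p = 1). DINOL and PANDAR did not pass the low-count filter and entered no fit.

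NEAT1 varied 2.06-fold between its lowest and its highest library, against 3.93-fold for MALAT1. With vehicle it measured 242 and 427 CPM in hyperoxia and 270 and 358 CPM in normoxia. With ATRA it measured 433, 210 and 330 CPM in hyperoxia and 341, 302 and 289 CPM in normoxia. In oxygen exposure alone the values were 408 and 251 CPM in hyperoxia and 330 and 278 CPM in normoxia. The groups overlapped in all 3 treatments, and hyperoxia libraries were both the highest and the lowest.

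**Figure D3:**
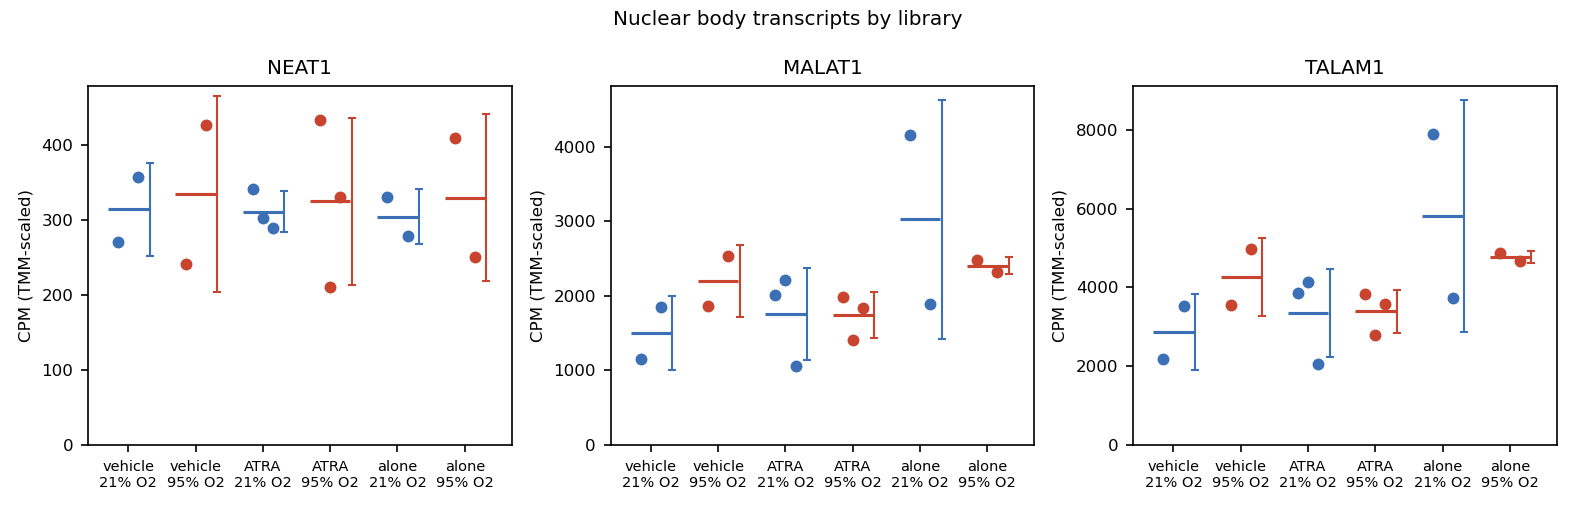
Levels of NEAT1, MALAT1 and TALAM1 in CPM (y axis, linear from 0) by treatment and oxygen level (1 point per library, horizontal line at the group mean, error bar SD). NEAT1 groups overlap throughout, and replicate 1 of normoxia alone is the highest library for MALAT1 (4161 CPM) and TALAM1 (7907 CPM).

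The log2 fold change of NEAT1 in hyperoxia was 0.09 with vehicle (SE 0.24, 95% interval -0.42 to 0.60), 0.07 with ATRA (SE 0.20, interval -0.35 to 0.49) and 0.12 in oxygen exposure alone (SE 0.30, interval -0.52 to 0.76). Adjusted p-values were 0.860, 0.845 and 0.817 (edgeR). These intervals leave out a 2-fold change in either direction, but not a smaller one. Direction was not fixed, since without replicate 1 of hyperoxia alone the last value became -0.28 and without replicate 1 of hyperoxia with ATRA the second became -0.19. ATRA against vehicle gave -0.02 in normoxia (SE 0.22, adjusted p = 0.995, edgeR) and -0.04 in hyperoxia (SE 0.22, adjusted p = 0.966, edgeR).

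MIR612, a microRNA gene of 100 bases within NEAT1, had 71 counts in the 14 libraries together against 19526 for NEAT1. The RefSeq annotation holds a short and a long NEAT1 transcript, of which the long one builds paraspeckles, and counts per gene do not separate them.

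MALAT1 measured 1859 and 2541 CPM in hyperoxia with vehicle and 1147 and 1847 CPM in normoxia with vehicle. With ATRA it measured 1990, 1403 and 1844 CPM in hyperoxia and 2016, 2214 and 1060 CPM in normoxia. In oxygen exposure alone it measured 2483 and 2323 CPM in hyperoxia and 4161 and 1887 CPM in normoxia. Hyperoxia was above normoxia with vehicle by a narrow gap, and the groups overlapped in the other treatments. Again the share of all genes separated in this way was not counted.

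The log2 fold change of MALAT1 in hyperoxia was 0.55 with vehicle (SE 0.25, unadjusted p = 0.0411, adjusted p = 0.152, edgeR), -0.01 with ATRA (SE 0.21, adjusted p = 0.975, edgeR) and -0.33 in oxygen exposure alone (SE 0.35, adjusted p = 0.548, edgeR). With the control libraries pooled, 4 against 4, it was 0.02 (SE 0.29, adjusted p = 0.965, edgeR). The vehicle difference passed the test with no low-count filter (adjusted p = 0.000636, edgeR), when only the vehicle groups were fitted (adjusted p = 0.00294, edgeR) and without replicate 3 of normoxia with ATRA (adjusted p = 0.0438, edgeR). It did not pass in the other alternatives, and the difference between the oxygen effects with ATRA and with vehicle was -0.57 (SE 0.33, adjusted p = 0.792, edgeR interaction term).

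TALAM1 counts followed MALAT1 counts almost exactly. TALAM1 measured 3566 and 4969 CPM in hyperoxia and 2176 and 3541 CPM in normoxia with vehicle, and over the 14 libraries it ran from 2062 to 7907 CPM while MALAT1 ran from 1060 to 4161 CPM. The ratio of TALAM1 to MALAT1 counts was 1.94 ± 0.0388 (SD, n = 14), with a lowest value of 1.87 and a highest of 2.01. The antisense gene was thus counted more often than MALAT1 in every library. TALAM1 made up 65.1% to 66.7% of the summed counts, and the Wilson 95% interval of the lowest library was 64.5% to 65.8%, which covers counting error only.

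**Figure D4:**
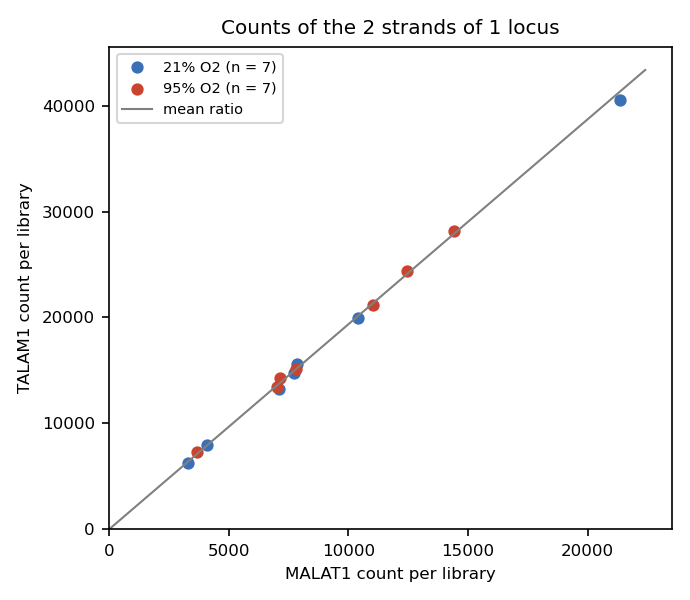
Counts of TALAM1 (y axis) against MALAT1 (x axis), 1 point per library, blue for 21% and red for 95% oxygen, with a grey line through the origin at the mean ratio of 1.94. All 14 libraries lie close to the line, from 3301 to 21340 MALAT1 counts.

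Pearson's r between the log2 CPM of TALAM1 and MALAT1 was 0.998 over 14 libraries, which share their scaling, and it was between -0.16 and 0.43 for the other 9 pairs of lncRNAs tested. The libraries were made with a directional kit, but the strand setting of the counting is not given in the sources used here, so the reads of MALAT1 and TALAM1 cannot be told apart and neither level is certain. The log2 ratio was 0.97 ± 0.0236 in hyperoxia and 0.94 ± 0.0277 in normoxia (SD, n = 7 each). That difference of 0.0288 did not pass (exact permutation test, two-sided, p = 0.0583), and it passed without any 1 of 4 libraries, with exact permutation p from 0.0167 to 0.0389. The mascRNA gene, a tRNA-like fragment released from the end of MALAT1, had 86 counts in all, of which 72 were in replicate 1 of hyperoxia alone.

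The log2 fold changes of TALAM1 lay close to those of MALAT1 in all 3 oxygen comparisons. They were 0.58 with vehicle (SE 0.25, adjusted p = 0.123, edgeR), 0.02 with ATRA (SE 0.20, adjusted p = 0.961, edgeR) and -0.29 in oxygen exposure alone (SE 0.34, adjusted p = 0.590, edgeR). The vehicle difference of TALAM1 passed in the 3 alternatives in which that of MALAT1 did and also without replicate 2 of normoxia with vehicle (adjusted p = 0.0361, edgeR).

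**Figure D5:**
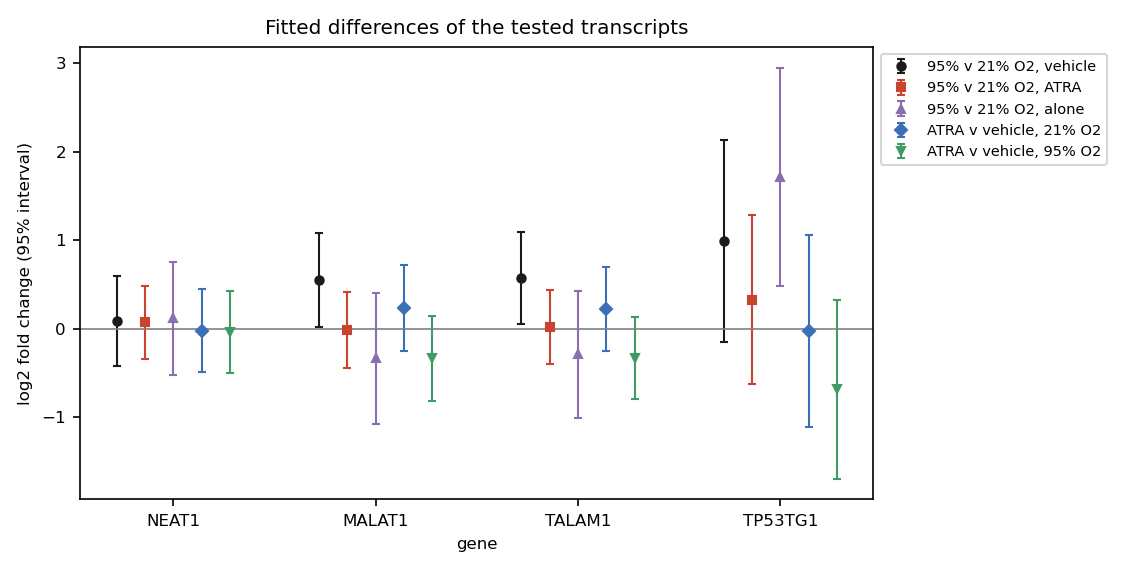
Fitted log2 fold changes (points, y axis) with 95% intervals (bars) of NEAT1, MALAT1, TALAM1 and TP53TG1 in 5 comparisons, with 0 marked by a grey line. The interval of MALAT1 and TALAM1 with vehicle and that of TP53TG1 in oxygen exposure alone leave out 0 before adjustment, and PINCR is not drawn because its normoxia groups are at 0 counts.

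With ATRA against vehicle, 0 of the 5 lncRNAs tested were called in normoxia, where 1.25% of genes were, and 0 in hyperoxia, where 2.21% were. At an unadjusted p under 0.05 the count was also 0 in both, against 1315 and 2019 of the 14957 genes tested. DESeq2 called 0 too. MALAT1 had a log2 fold change of 0.23 in normoxia (SE 0.23, adjusted p = 0.894, edgeR) and -0.33 in hyperoxia (SE 0.23, adjusted p = 0.576, edgeR), and TALAM1 had 0.23 and -0.33 as well. The interaction of ATRA and oxygen was called for 0 of them by edgeR and by DESeq2, against 0.14% of genes in edgeR. At an unadjusted p under 0.05 it was also 0 in edgeR, against 1078 genes. In oxygen exposure alone 0 of the 5 were called, where 15.2% of genes were. There 1 had an unadjusted p under 0.05 in edgeR (TP53TG1), against 4637 of 15339 genes.

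The NEAT1 count was 7.93% to 27.2% of the MALAT1 count in the same library. Its log2 ratio to MALAT1 was -2.68 ± 0.327 in hyperoxia and -2.60 ± 0.586 in normoxia (SD, n = 7 each), a difference of -0.08 (exact permutation test, two-sided, p = 0.725). Per kilobase of exon, the median level over the 14 libraries was 466 CPM for TALAM1, 186 for MALAT1 and 13.9 for NEAT1. It was 0.942 for TP53TG1, 0.808 for PANDAR and 0 for PINCR and DINOL. The ranges of TALAM1 and MALAT1 overlapped, from 254 to 974 and from 102 to 399 CPM per kilobase, and so did those of TP53TG1 and PANDAR, while that of NEAT1, from 9.24 to 19.0, overlapped none of the others. Because the reads of MALAT1 and TALAM1 cannot be told apart, neither of their levels, nor the ratio of NEAT1 to MALAT1, is certain.

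Other lncRNAs linked to p53 were also listed, and the counts called in these lists stand against the 17.5% of all genes called in hyperoxia with vehicle, 22.7% with ATRA and 15.2% in oxygen exposure alone. For listed genes, rose and fell mean that the difference was called by edgeR, and the others may still have differed. Of 9 tested, 4 rose and 1 fell in hyperoxia with vehicle, and the list's median log2 fold change was 0.74, where that of all genes was 0.01. With ATRA 6 rose and 0 fell, and in oxygen exposure alone 3 rose and 0 fell. With vehicle those that rose were GAS5, a host of small nucleolar RNAs that builds up in arrested cells (150 ± 11.5 CPM in hyperoxia against 38.0 ± 8.64 in normoxia, SD, n = 2 each), NORAD, which binds Pumilio proteins (log2 fold change 0.83), MEG3, an imprinted lncRNA known to raise p53 activity (1.39), and PURPL, a p53 target known to restrain p53 (1.31). WRAP53, which also encodes a protein of Cajal bodies, fell by 1.10 on the log2 scale. NORAD also rose with ATRA in normoxia (log2 fold change 0.70, adjusted p = 0.0139, edgeR) and GAS5 fell with ATRA in hyperoxia (log2 fold change -0.91, adjusted p = 0.0134, edgeR).

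All 13 of the p53 target genes listed rose in hyperoxia with vehicle and with ATRA, with median log2 fold changes of 2.09 and 2.25. In oxygen exposure alone edgeR called 11 of the 13 higher and DESeq2 called all 13 higher. MATR3, the partner of PINCR, fell by 0.48 on the log2 scale with ATRA (adjusted p = 0.00854, edgeR) and by 0.53 in oxygen exposure alone (adjusted p = 0.0429, edgeR), and had a log2 fold change of -0.42 with vehicle (adjusted p = 0.0704, edgeR). YBX1, the partner of TP53TG1, fell by 0.61 on that scale in oxygen exposure alone (adjusted p = 0.0264, edgeR), but had log2 fold changes of -0.02 with vehicle (adjusted p = 0.953, edgeR) and -0.19 with ATRA (adjusted p = 0.240, edgeR).

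Of the 14 paraspeckle proteins that assemble on NEAT1, 4 fell and 1 rose in hyperoxia with vehicle, where 17.5% of all genes were called, 4 fell and 0 rose with ATRA, where 22.7% were, and 3 fell and 0 rose in oxygen exposure alone, where 15.2% were. SFPQ, a core protein needed for NEAT1 stability, fell by 0.85 on the log2 scale with vehicle (adjusted p = 0.000101, edgeR), by 0.99 with ATRA (adjusted p = 1.02e-06, edgeR) and by 1.08 in oxygen exposure alone (adjusted p = 6.28e-05, edgeR). CPSF6 also fell in all 3 comparisons, and PSPC1, another core protein, rose with vehicle (log2 fold change 0.90, adjusted p = 0.0202, edgeR). The list's median was -0.22 with vehicle and -0.17 with ATRA, against 0.01 for all genes, and -0.18 in oxygen exposure alone, against -0.10.

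Of the 11 proteins of nuclear speckles or of MALAT1 RNA, 1 fell and 0 rose in hyperoxia with vehicle, 5 fell and 1 rose with ATRA, and 3 fell and 0 rose in oxygen exposure alone, against the same shares of all genes. SRSF1, a splicing factor known to bind MALAT1, fell in each, by 0.50, 0.74 and 0.97 on the log2 scale. METTL16, known to bind the triple helix at the MALAT1 end, rose with ATRA (log2 fold change 0.58, adjusted p = 0.00526, edgeR). Of 8 other nuclear lncRNAs tested, KCNQ1OT1, the antisense RNA of an imprinted domain, fell by 1.94 with vehicle and by 2.23 with ATRA, and TERC, the telomerase RNA, rose by 1.12 and 0.78, all on the log2 scale. RPPH1, the RNA of RNase P, RMRP, the RNA of RNase MRP, and RN7SK also rose with ATRA. That made 2 of the 8 called with vehicle (17.5% of all genes) and 5 with ATRA (22.7%), and 0 in oxygen exposure alone (15.2%). In that last comparison KCNQ1OT1 had a log2 fold change of -2.40 (adjusted p = 0.127, edgeR), 6 of the 8 had an unadjusted p under 0.05, and DESeq2 called 2, TERC higher and DLEU2 lower.

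Among the genes within 100000 bases of the 7, 12 were tested with vehicle. There CDKN1A and DPF2 rose and EHBP1L1 and MAP3K11 fell, where 17.5% of all genes were called. The median log2 fold change was -0.16 with vehicle but 0.36 with ATRA, where 3 of 12 rose and 2 fell (22.7% of all genes called), and 0.52 in oxygen exposure alone, where 3 of 13 rose and 1 fell (15.2%). By Pearson's r of log2 CPM over 14 libraries, which include both oxygen levels, the genes most like PINCR were UROS (0.97), DRAXIN (0.97) and MAPKAPK3 (0.97). Those most like TP53TG1 were IGF2BP2 (0.96), EMC1 (0.93) and C17orf51 (0.92). NEAT1 was most like AP5M1 (0.84), LOC107984338 (0.83) and SIRT5 (0.83), and MALAT1, after TALAM1, was most like WAPL (0.84) and NSRP1 (0.82).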

How the data were processed

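RNA-seq was performed on A549 libraries with a directional kit. Per the labels and the study's methods, the authors used Trimmomatic 0.38 for trimming, hisat2 for alignment to hg38 and htseq for counting by gene symbol, and deposited the raw counts. The annotation, strand and overlap settings are not given in the sources used here, and 75.2% to 78.4% of counts were on lines that name no gene and were left out. Genes were filtered with filterByExpr (minimum count 10, minimum total 15), scaled by TMM and tested with the quasi-likelihood test of edgeR 4.0.16 on 10 libraries in 4 groups. Oxygen exposure alone was tested on 14 libraries in 6 groups. Calls are Benjamini-Hochberg adjusted p under 0.05 over all genes. DESeq2 1.42.0 was an alternative. CPM values come from the fit of 14 libraries. Folds against groups at 0 use 3 counts per library. Lists were fixed in writing, with at most 4 members named in order of p, except PURPL with vehicle, and MATR3 (vehicle), CROT, MIR612 and mascRNA, named after their values were seen. The members and lists were chosen with earlier results of these data known. The procedure was tested on simulated counts with known changes in hyperoxia with vehicle. There edgeR recovered 30% of 2-fold and 63% of 4-fold changes, with 6.06% of its calls false. DESeq2 recovered 34% and 68%, with 10.5% of its calls false. A difference that did not pass is therefore not shown to be absent. The library whose title and treatment label disagree was not assigned to a group. Sequences are from RefSeq, GRCh38.p14, whose table held 3 of the 7 lncRNAs. Results for some genes of these lists are not reported here.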

Additional observations from a re-analysis of the deposited data

Results flagged for a closer look

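The library that was assigned to no group, because its title names hyperoxia and its treatment label names adipogenic differentiation, entered no comparison. It had levels of 3 of the 7 lncRNAs above every normoxia library, and the share of all genes above them was not counted. PINCR measured 3.96 CPM (18 counts), where all 7 normoxia libraries had 0. TP53TG1 measured 8.57 CPM (39 counts) against a highest normoxia value of 6.26 CPM. NEAT1 measured 428 CPM against a highest normoxia value of 358 CPM.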

How the results depend on the processing

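Replicate numbers were given in accession order and paired no libraries, so the block fitted was for library sets inferred from the library numbers, and it left the count of lncRNAs called at the same value in all 6 comparisons. The causes of the low DINOL and PANDAR counts and of the changes below were not tested. The count of lncRNAs called in hyperoxia against normoxia with vehicle was 3 with no low-count filter, 3 with only the groups compared, 0 with 14 libraries in 6 groups and 2 with pooled controls, and 1 to 3 with each library left out. In oxygen exposure alone it was 1 in DESeq2 and 0 to 1 with each library left out. Genes called over the whole table numbered, with no filter, 300 and 522 for ATRA in normoxia and hyperoxia and 91 for the interaction, which was 103 in DESeq2. With only the groups compared they numbered 4665 with vehicle and 58 in oxygen exposure alone. With 14 libraries they numbered 1420 with vehicle, 1975 with ATRA, 70 and 116 for ATRA in normoxia and hyperoxia and 4 for the interaction. With pooled controls they numbered 2073 with ATRA, 182 for ATRA in hyperoxia and 5 for the interaction. With each library left out they ran from 1386 to 3175 with vehicle, 969 to 7364 in oxygen exposure alone, 56 to 267 and 83 to 449 for ATRA in normoxia and hyperoxia, and 4 to 28 for the interaction.

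Signs turned in log2 fold changes that had not passed the test. With total counts in place of TMM, MALAT1 in hyperoxia with ATRA became 0.0031 and the NEAT1 interaction 0.018. With pooled controls TALAM1 in hyperoxia with ATRA became -0.0043, and ATRA in normoxia gave NEAT1 0.016, MALAT1 -0.35, TALAM1 -0.36 and TP53TG1 0.055. With a block for library sets inferred from the library numbers, TALAM1 with ATRA became -0.00026 and NEAT1 in oxygen exposure alone -0.11. Over the 10 libraries with vehicle or ATRA the PANDAR difference became 0.0855 CPM. With each library left out, hyperoxia against normoxia ran for NEAT1 from -0.41 to 0.42 with vehicle, -0.19 to 0.27 with ATRA and -0.28 to 0.37 in oxygen exposure alone. For MALAT1 it ran from -0.30 to 0.18 with ATRA and -0.83 to 0.31 in oxygen exposure alone, and for TALAM1 from -0.26 to 0.20 and -0.77 to 0.31. ATRA in normoxia ran from -0.21 to 0.20 for NEAT1, -0.078 to 0.62 for MALAT1, -0.090 to 0.62 for TALAM1 and -0.18 to 0.19 for TP53TG1. ATRA in hyperoxia ran from -0.40 to 0.43 for NEAT1, and its interaction from -0.37 to 0.45. The DINOL difference ran from -0.0654 to 0.147 CPM, the MALAT1 difference within treatment from -149 to 368 CPM, the log2 ratio difference of NEAT1 to MALAT1 from -0.26 to 0.040 and that of TALAM1 to MALAT1 from 0.0226 to 0.0369. The permutation tests of NEAT1, MALAT1, PINCR and TP53TG1 by CPM, 4 tests, were chosen after seeing the data.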

Other observations

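In the same unassigned library MALAT1 measured 2078 CPM, TALAM1 4188 CPM and PANDAR 0.440 CPM (2 counts), and DINOL had 0 counts.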
